A study of Mus musculus with 16 samples.

Results

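RNA of ventricular cardiomyocytes from male mice with a GPER deletion was compared with RNA of male mice with the receptor intact, across 17097 genes. The arrays used are the 8 male arrays of 16 in the series, and the other 8 are from female mice. The GPER KO group is animals 431, 432, 444 and 451, and the intact group, named wild type in the labels, is animals 430, 433, 452 and 453. Each animal gave 1 array. The labels give an age of 15 weeks for every animal of both groups and name no treatment, while the study's methods give an older age range, and this disagreement could not be settled. The study describes the knockout as a deletion in cardiomyocytes only. The driver of that deletion and the genetic background are not given in the sources used here. Hearts were digested with collagenase and cells were spun down without sorting by a surface marker, so other cell types of the heart can be present.

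GPER, the G protein-coupled estrogen receptor, is a membrane receptor for estradiol that signals through G proteins, cyclic AMP, the EGF receptor and PI3 kinase, and it acts apart from the nuclear estrogen receptors. Heart muscle cells live on fatty acid oxidation, store and release calcium at each beat, and release natriuretic peptides when stretched. Macrophages, endothelial cells, fibroblasts and pericytes lie between them, and their RNA can reach a cardiomyocyte preparation.

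The values are log2 signals per probe set after RMA normalization, in which a difference of 1 is a 2-fold change and levels of different probe sets are not comparable. The medians of the male arrays lay between 3.47 and 3.51, every pair of arrays correlated at 0.987 to 0.997 over all probe sets, and no pair was identical. The probe set for Gper1 did not separate the groups. Gper1 read 2.64, 2.77, 2.75 and 2.93 in intact animals 430, 433, 452 and 453, and 2.86, 2.82, 2.74 and 2.72 in GPER KO animals 431, 432, 444 and 451. These levels lie below the median probe set of the arrays, the difference was 0.0093, and a two-sided exact permutation test over the 70 assignments of the arrays gave p = 0.971, where 0.0286 is the smallest it can give. Whether this probe set lies inside the deleted part was not tested, so the genotype labels were taken as given. The nuclear estrogen receptors read 0.14 (Esr1) and 0.075 (Esr2) higher on the log2 scale in GPER KO, and neither was called.

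Of the 17097 genes, 66 (0.386%) passed an adjusted p of 0.05 in limma, and such genes are named called from here on. Higher in GPER KO were 52 genes (0.304%), led by Ndnf, Lgals3, Timp1, Fgl2 and Nppa, and lower were 14 (0.0819%), led by Amy1. The called differences ran from 0.32 to 1.97 in size on the log2 scale, and 8 of them were 2-fold or more. In each called gene the 4 GPER KO values did not overlap the 4 intact values, which was so for 6.17% of all genes. At an unadjusted p of 0.05, 1205 genes (7.05%) were higher and 622 (3.64%) lower, together 10.7% of those tested. The median difference over all genes was 0.015, and 56.4% of genes were above intact.

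**Figure D1:**
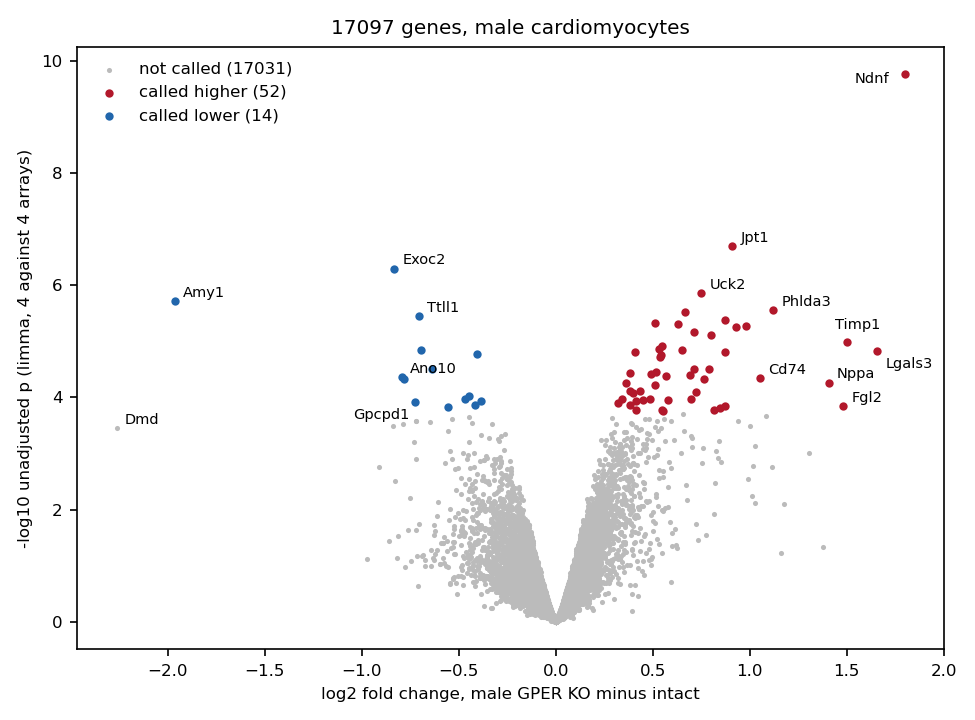
Each point is 1 of 17097 genes, with its log2 difference between male GPER KO and intact on the horizontal axis and −log10 of its unadjusted limma p on the vertical axis. Red marks the 52 genes called higher and blue the 14 called lower. Ndnf stands highest and Amy1 farthest left among the called genes, while Dmd, farther left still, was not called.

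The calls depend on which animals are in the fit. Leaving out 1 intact array gave 43 called genes when that array was 430, 41 for 433, 24 for 452 and 41 for 453. Leaving out 1 GPER KO array gave 23 called genes when it was 431, 25 for 432, 85 for 444 and 69 for 451. Whichever array was left out, 16 genes were called: Ndnf, Timp1, Phlda3, Dpysl3, Tmem176a, Tmem176b, Jpt1, 1700120C14Rik, Uck2, Gpx3, Tspo, Snap91, Prmt2, Amy1, Exoc2 and Ttll1. All 66 differences kept their direction within the low animal numbers (430 to 433) and within the high ones (444 to 453). This had to be so, because the groups of every called gene did not overlap, and it is no further support. Each of the other 50 called genes lost the call in at least 1 of the 8 fits with an array left out.

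Genes known to rise in the stretched heart were among the called genes. Nppa encodes the precursor of atrial natriuretic peptide. It read 10.62, 9.62, 9.48 and 10.01 in intact animals 430, 433, 452 and 453, and 11.46, 11.37, 11.34 and 11.19 in GPER KO animals 431, 432, 444 and 451. Every GPER KO animal lay above every intact animal, and the intact animals were spread more widely, with 430 the highest. The difference was 1.41 ± 0.21 (SE, 4 against 4 animals) on the log2 scale, or 2.65-fold, with an adjusted p of 0.0235 in limma. With 1 array left out, the adjusted p in limma ran from 0.00242 to 0.104, and it missed 0.05 without 431, 432, 433, 452 or 453.

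Ankrd1, a titin-bound ankyrin repeat protein of muscle that is known to rise with load, read 11.29, 10.81, 11.42 and 11.15 in intact and 11.86, 11.96, 11.90 and 11.85 in GPER KO. The GPER KO animals were within 0.11 of each other and above all intact animals, and the difference was 0.72 ± 0.11 (SE, adjusted p = 0.0312 in limma). That call was lost without 430, 431, 432, 444, 451 or 453, with an adjusted p in limma of up to 0.113. Nppb, the precursor of B-type natriuretic peptide, read 10.31, 9.86, 10.59 and 10.38 in intact and 11.07, 10.92, 11.50 and 11.65 in GPER KO. Its groups did not overlap either, but its difference of 1.0 ± 0.19 (SE) missed the threshold (adjusted p = 0.0631 in limma). Skeletal alpha-actin, Acta1, was 0.82 above intact with overlapping groups, and the beta myosin heavy chain Myh7 was 0.05 below. The Myh7 probe set read between 12.42 and 12.61 on every male array. Whether it also reads other myosin heavy chains was not tested.

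Of the 17 measured genes in the list of natriuretic peptides and stretch genes, 2 were called higher and none lower, 11 were above intact and the median difference was 0.050. Over all genes, 0.304% were called higher and 56.4% were above intact. The natriuretic peptide receptors Npr1, Npr2 and Npr3 and the processing proteases Corin and Furin were not called, with differences between −0.14 and 0.08.

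The levels of atrial markers differed widely between animals, and Nppa is itself one of them. Myl7, the atrial myosin light chain, read 9.38, 6.54, 7.50 and 8.43 in intact and 10.17, 9.76, 9.43 and 7.99 in GPER KO. Myl4, the other defining atrial marker, was 1.16 above intact, and neither was called. The mean log2 signal of the 5 measured atrial markers ran from 6.84 to 8.13 in intact and from 7.77 to 8.73 in GPER KO, and 4 of the 5 were above intact. GPER KO 451, the lowest of its group in Myl7, Myl4 and Nppa, had an Nppa level within 0.27 of the other GPER KO animals and the highest Nppb level of all 8. Nppa and Myl7 ranked the GPER KO animals alike, from 431 through 432 and 444 to 451. In intact, 430 and then 453 were highest in both genes, while 433 and 452 changed places. Bmp10, another atrial gene, was 0.024 below intact. The part of atrial RNA in the Nppa difference was not tested.

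The stretches just before the starts of Nppa and Ankrd1 are shown because these genes differed together. They come from RefSeq promoters of build GRCm38.p6, 250 bases each, written 5′ to 3′ on the gene's strand. Capitals mark TATAAA, the core promoter element, in Nppa (chr4:148000472-148000721, plus strand) and GGAATG, which TEAD factors are known to bind, in Ankrd1 (chr19:36119845-36120094, minus strand).
Nppa: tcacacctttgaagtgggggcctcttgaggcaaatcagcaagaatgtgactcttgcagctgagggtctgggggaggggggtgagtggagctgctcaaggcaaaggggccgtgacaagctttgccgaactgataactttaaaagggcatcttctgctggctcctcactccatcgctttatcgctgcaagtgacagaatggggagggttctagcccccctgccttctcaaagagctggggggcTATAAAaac
Ankrd1: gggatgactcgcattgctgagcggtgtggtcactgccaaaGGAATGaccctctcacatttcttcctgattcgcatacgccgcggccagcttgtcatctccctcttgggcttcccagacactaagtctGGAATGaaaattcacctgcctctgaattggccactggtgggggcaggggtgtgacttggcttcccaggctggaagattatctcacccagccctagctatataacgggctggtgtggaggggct
TATAAA begins 9 bases before the listed start of Nppa, and GGAATG begins 210 and 123 bases before that of Ankrd1. Searched on both strands, TATAAA was found in 12.4% and GGAATG in 12.6% of the 32851 promoters of that length. These are matches of letters only.

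Ndnf, a secreted glycoprotein first known as a neurotrophic factor, had the smallest p of all genes. Ndnf read 3.88, 4.09, 3.96 and 4.01 in intact and 5.67, 5.77, 5.89 and 5.81 in GPER KO. The groups were 1.57 apart at their nearest points, several times the range within either group. Its difference was 1.80 ± 0.07 (SE), or 3.48-fold, with an adjusted p in limma of 7.17e-05 or less whichever array was left out. A second probe set of Ndnf, with a mean of 2.39 in intact, read 0.17 higher in GPER KO.

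Lgals3 encodes galectin-3, a lectin that macrophages make in abundance. It read 4.24, 4.34, 4.10 and 4.49 in intact and 5.99, 6.26, 6.32 and 5.23 in GPER KO. GPER KO 451 was the lowest of its group and still above every intact animal. The difference was 1.66 ± 0.21 (SE), or 3.15-fold, with an adjusted p of 0.0115 in limma. The call was lost without 431, 432 or 452, each with an adjusted p in limma of at most 0.0538.

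Timp1, an inhibitor of matrix metalloproteinases, read 4.02, 3.66, 3.84 and 4.16 in intact and 5.15, 5.62, 5.89 and 5.03 in GPER KO. The lowest GPER KO animal was 0.87 above the highest intact animal. The difference was 1.50 ± 0.18 (SE), or 2.83-fold (adjusted p = 0.0110 in limma). Fgl2, a fibrinogen-like protein with prothrombinase activity, read 4.63, 5.10, 4.58 and 5.50 in intact and 6.10, 6.30, 7.09 and 6.24 in GPER KO, a difference of 1.48 ± 0.25 (SE, adjusted p = 0.0403 in limma). Its groups did not overlap, but both were widely spread, and the call was lost without 430, 431, 432, 433, 451 or 452, with an adjusted p in limma of up to 0.133. Lcn2, lipocalin 2, read from 2.96 to 3.20 in intact and from 3.77 to 4.83 in GPER KO, with no overlap and an adjusted p of 0.0541 in limma.

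In the list of galectins, lipocalin and secreted injury markers, 3 of 15 measured genes were called, all higher, and 11 were above intact with a median difference of 0.12. Over all genes, 0.304% were called higher and 56.4% were above intact. The 3 called genes of the list are Lgals3, Timp1 and Fgl2. Lgals4 lay 0.50 below intact and was not called.

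Ccn2, connective tissue growth factor, read 7.89, 7.72, 8.17 and 7.70 in intact and 8.54, 8.87, 8.76 and 8.80 in GPER KO. All GPER KO animals were higher, by 0.87 ± 0.11 (SE, adjusted p = 0.0115 in limma), and only the fit without 432 lost the call (adjusted p = 0.0503 in limma). Ndnf and Ccn2 were the 2 called of 28 measured genes in the list of TGF-beta and growth factors, in which 18 genes were below intact and the median was −0.028. Over all genes, 0.304% were called higher and the median was 0.015. The ligands and receptors Tgfb1, Tgfb2, Tgfbr1 and Tgfbr2 were not called, and Pdgfd, a platelet-derived growth factor, lay 0.84 below intact with no overlap and an adjusted p of 0.0631 in limma.

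Among 36 measured collagens and other matrix genes, Timp1 was the only call, where 0.304% of all genes were called higher. Of the 36, 30 were above intact, 8 without overlap, against 4.2% of all genes with every GPER KO value higher. The median difference of the list was 0.14, with 0.33 within the low animal numbers, 0.0092 within the high ones, 0.23 without 451 and 0.060 without intact 430. Col3a1, a fibrillar collagen of fibroblasts, read 7.21, 7.18, 7.57 and 8.34 in intact and 8.92, 9.01, 9.37 and 7.70 in GPER KO, where GPER KO 451 fell within the intact range. Timp2, fibronectin (Fn1) and thrombospondin 4 (Thbs4) did not overlap between groups, with differences of 0.44, 0.37 and 0.70, and none was called. Timp3 was 0.40 below intact.

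The fibroblast markers were mixed beside these genes. Of 16 measured, 10 were above intact, with a median of 0.10 and no call. That median was 0.33 within the low animal numbers, −0.068 within the high ones, and between 0.032 (without 433) and 0.19 (without 453) with 1 array left out. The mean log2 signal of the markers was 4.90 to 5.43 in intact and 4.92 to 5.47 in GPER KO, so the groups overlapped throughout, and the difference of the group means was 0.13, or 0.25 without 451. Of the defining markers, Pdgfra was 0.08 below and Col1a1 0.32 above intact. Fbln1 lay 0.91 below. The part of fibroblast RNA in the matrix differences was not tested.

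**Figure D2:**
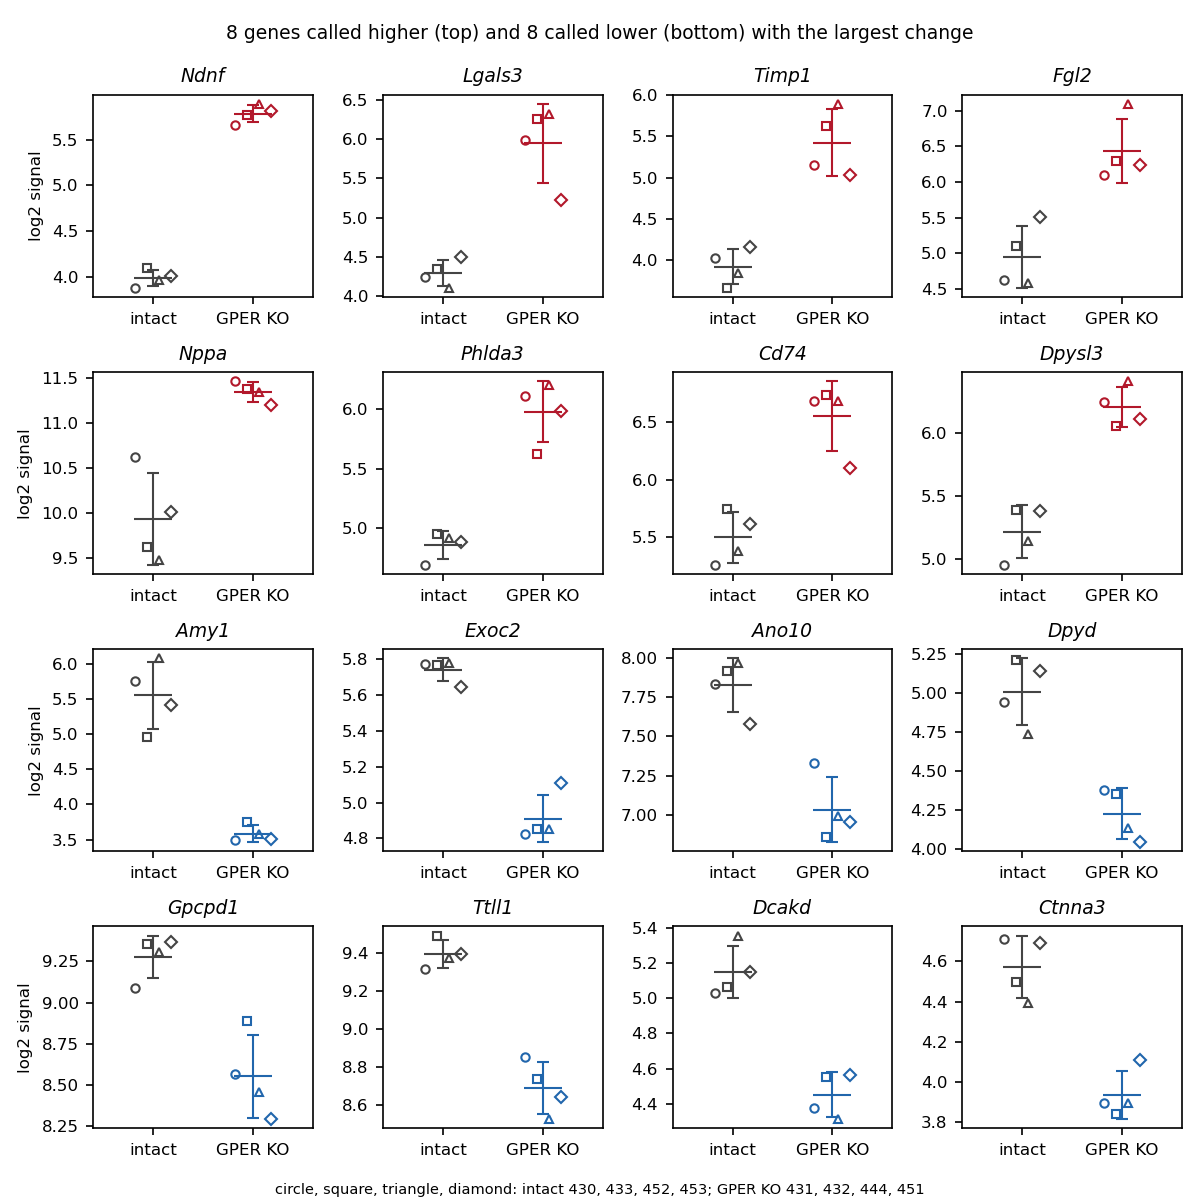
Log2 signals of the 8 genes called higher and the 8 called lower with the largest differences, each symbol 1 male mouse, with the mean and SD of the 4 mice of each group. No gene shown has overlapping groups, and GPER KO 451 (diamond) is the lowest of its group for Lgals3, Timp1, Nppa and Cd74.

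Cd74, H2-Aa and H2-Ab1, 3 genes of antigen presentation on MHC class II, rose in GPER KO. These genes encode the alpha and beta chains of the class II molecules, the invariant chain Cd74 that guides them through the cell, and the proteases and H2-DM chains that load them, and they mark antigen-presenting cells. Cd74 read 5.26, 5.75, 5.38 and 5.61 in intact and 6.68, 6.74, 6.69 and 6.10 in GPER KO. GPER KO 451 lay far below the other GPER KO animals and above all intact animals. The difference was 1.05 ± 0.15 (SE), or 2.07-fold, with an adjusted p of 0.0212 in limma, and of 0.00273 without 451. The call was lost without 430, 431, 432, 452 or 453, where the adjusted p in limma was at most 0.0933.

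H2-Aa, a class II alpha chain, read 5.72, 5.80, 5.61 and 5.86 in intact and 6.77, 6.87, 6.71 and 6.12 in GPER KO (0.87 ± 0.15 SE, adjusted p = 0.0403 in limma). Its partner H2-Ab1, the next gene in the RefSeq table, read 4.52, 4.56, 4.46 and 4.64 in intact and 5.22, 5.50, 5.57 and 5.05 in GPER KO (0.79 ± 0.11 SE, adjusted p = 0.0184 in limma). Animal 451 was again the lowest GPER KO animal for both chains on the probe sets used, and on a further probe set of each gene. On another H2-Aa probe set 451 was the highest, at 5.76 beside 4.92, 5.04 and 4.88 in 431, 432 and 444. On another H2-Ab1 probe set 444 (4.65) was just below 451 (4.67). Both calls depended on the animals: H2-Aa was called in 1 (without 451) and H2-Ab1 in 3 of the 8 fits with an array left out, with adjusted p values in limma of up to 0.154 and 0.0828. H2-Eb1, another beta chain, was 1.11 above intact, but 451 at 5.40 fell inside the intact range of 4.92 to 5.53, and the gene was not called.

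Of the 12 measured class II genes, 3 were called higher, 10 were above intact and the median was 0.30 (0.42 within the low and 0.18 within the high animal numbers). Over all genes, 0.304% were called higher and 56.4% were above intact. Ciita, the master regulator of these genes, differed by less than 0.005, and H2-DMa by 0.30 without a call. The mean log2 signal of the list was 4.27 to 4.41 in intact and 4.51 to 4.96 in GPER KO.

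Promoters of H2-Aa and H2-Eb1 are shown because class II genes are known to share short elements upstream of their starts. Capitals mark CTGATTGG, the Y box, and in H2-Aa also TGACGTCA, a cyclic AMP response element like the X2 box. The stretches are the 250 bases before the RefSeq start in GRCm38.p6, 5′ to 3′ on the gene's strand, at chr17:34287824-34288073 (minus strand) and chr17:34305617-34305866 (plus strand).
H2-Aa: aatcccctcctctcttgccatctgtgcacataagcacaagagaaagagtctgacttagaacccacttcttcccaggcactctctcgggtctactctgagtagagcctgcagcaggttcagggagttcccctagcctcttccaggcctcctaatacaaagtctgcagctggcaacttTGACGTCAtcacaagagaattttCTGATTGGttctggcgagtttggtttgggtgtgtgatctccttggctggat
H2-Eb1: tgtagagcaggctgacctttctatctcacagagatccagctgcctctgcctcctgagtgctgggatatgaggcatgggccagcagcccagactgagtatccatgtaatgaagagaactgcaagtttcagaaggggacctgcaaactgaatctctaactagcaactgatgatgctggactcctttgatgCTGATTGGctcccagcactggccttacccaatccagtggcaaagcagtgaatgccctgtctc
CTGATTGG begins 51 bases before the start of H2-Aa and 62 before that of H2-Eb1, and TGACGTCA 74 bases before that of H2-Aa. On either strand, CTGATTGG was found in 3.83% and TGACGTCA in 1.55% of 32851 promoters.

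Macrophage markers lay above intact beside the class II genes and Lgals3. Of 26 measured macrophage markers, 23 were above intact, with a median of 0.47 (0.59 within the low and 0.23 within the high animal numbers), and 1 was called. Over all genes, 56.4% were above intact and 0.304% were called higher. The called marker is Mpeg1, the macrophage pore-forming protein perforin-2. It read 4.72, 4.65, 4.62 and 4.75 in intact and 5.46, 5.44, 5.61 and 5.01 in GPER KO (0.70 ± 0.11 SE, adjusted p = 0.0369 in limma). GPER KO 451 was the lowest of its group here too, and only the fit without 451 kept the call (adjusted p = 0.0014 in limma), with values of up to 0.134 without the others.

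The lysozyme gene Lyz2 read 7.36 to 7.85 in intact, 8.77 to 8.94 in 3 GPER KO animals and 7.87 in GPER KO 451. Cathepsin S (Ctss), which trims the invariant chain in antigen-presenting cells, was 1.30 above intact with overlapping groups. Among the defining markers, Cd68 was 0.70, Csf1r 0.34 and Adgre1 0.29 above intact without overlap, Fcgr1 was 0.06 below, and none of the 4 was called. The mean log2 signal of the list was 4.22, 4.33, 4.28 and 4.70 in intact and 4.98, 4.82, 5.03 and 4.51 in GPER KO. Intact 453 was thus above GPER KO 451, and the difference of the group means was 0.45, or 0.56 without 451. In such preparations fewer cells of a type and less RNA per cell cannot be told apart. The part of macrophage RNA in the differences of Lgals3, Fgl2, Ctsz and the class II genes was not tested.

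The neighbours Tmem176a and Tmem176b, which encode membrane proteins of immature dendritic cells, were higher by 0.93 and 0.87 and were called whichever array was left out. Tmem176b read 6.64, 6.89, 6.62 and 6.88 in intact and 7.76, 7.75, 7.43 and 7.57 in GPER KO. GPER KO 451 was not the lowest of its group for either gene. The lysosomal cathepsin Ctsz (0.81), the inflammasome adaptor Pycard (0.57), the adaptor Skap2 (0.44) and the macrophage elastase Mmp12 (0.41) were called higher. Of the 8 fits with an array left out, 3 kept the call of Ctsz and 3 that of Pycard, with adjusted p values in limma of up to 0.161 and 0.0883. Skap2 and Mmp12 kept it in 1, the fit without 451, with values of up to 0.114 and 0.134. Mmp12 read 2.91 to 3.05 in intact and 3.22 to 3.48 in GPER KO, below the array medians. The complement protease Masp1 was higher by 0.65 and the interleukin receptor Il13ra1 by 0.41. Their calls were kept in 5 and 7 of the 8 fits, with adjusted p values in limma of up to 0.0538 and 0.0532.

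None of 39 measured chemokines and cytokine receptors was called at an adjusted p of 0.05. Of these, 29 were above intact, and 5 (12.8%) had every GPER KO value higher, against 4.2% of all genes. Ccl6, a myeloid chemokine, was 1.01 and Ccl8 0.76 above intact. Of 22 interferon-stimulated genes 18 were below intact, with a median of −0.078 and no call. Without GPER KO 451 that median was −0.024, and it was 0.011 within the low and −0.14 within the high animal numbers. Neutrophil markers, at mean log2 signals of 3.45 to 3.56 in intact and 3.41 to 3.51 in GPER KO, had a median of −0.042 over 11 genes. T, NK and B cell markers lay between 3.43 and 3.70 in their mean log2 signal on all arrays.

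All 18 measured endothelial markers lay below intact, and none was called. The median was −0.33 (−0.20 within the low and −0.45 within the high animal numbers), and the differences ran from −0.63 to −0.065. Of the defining markers, Pecam1 read 5.01, 6.33, 5.97 and 6.18 in intact and 5.77, 5.33, 5.91 and 5.17 in GPER KO. Intact 430 had the lowest Pecam1 level of all 8 animals, so the groups overlapped. The mean log2 signal of the list ran from 5.90 (intact 430) to 6.57 in intact and from 5.72 (GPER KO 451) to 6.24 in GPER KO.

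Markers of the cardiomyocyte itself were close between groups. The mean of 16 markers was 12.18 to 12.22 in intact and 12.15 to 12.20 in GPER KO. These levels are among the highest on the arrays, and whether differences are compressed there was not tested. Of the defining markers, Tnnt2 and Actc1 differed by 0.023 and 0.034, and Tnni3 and Pln by −0.077 and −0.12, Tnni3 without overlap. Of the 16 markers 10 were below intact, 3 of them with every GPER KO value lower, against 1.97% of all genes. No marker was called.

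**Figure D3:**
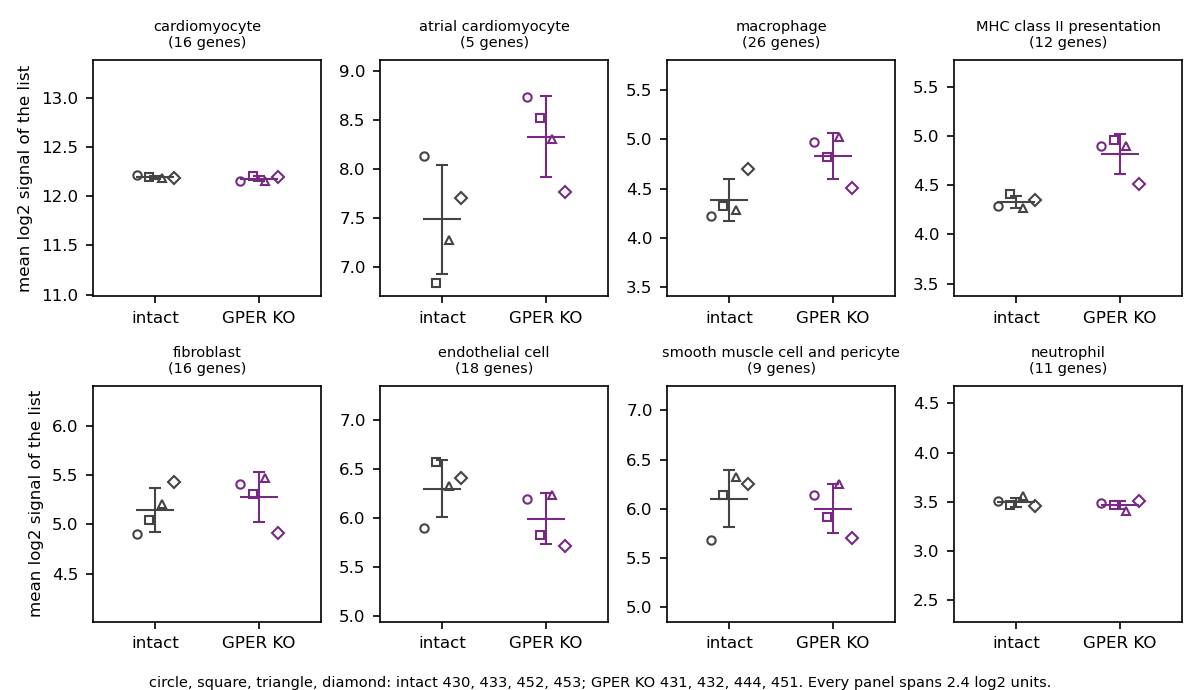
Mean log2 signal of each marker list on every male array, with the mean and SD of each group. The cardiomyocyte panel is flat. GPER KO 451 (diamond) lies below the other GPER KO animals for every list shown except the cardiomyocyte and neutrophil lists. Among intact animals, 430 (circle) is lowest for the endothelial, macrophage, fibroblast and smooth muscle and pericyte lists and highest for the atrial list.

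Of the p53 target genes, Phlda3 was called. Phlda3 encodes a PH domain protein that opposes AKT at the membrane. It read 4.69, 4.95, 4.92 and 4.89 in intact and 6.11, 5.62, 6.20 and 5.99 in GPER KO. The groups were far apart, with the lowest GPER KO animal 0.67 above the highest intact animal. The difference was 1.12 ± 0.12 (SE), or 2.17-fold (adjusted p = 0.0073 in limma), and it was called whichever array was left out. Cdkn1a, the cell cycle inhibitor p21, was 0.56 above intact without overlap and had an adjusted p of 0.0837 in limma. Of 23 measured targets, 15 were above intact with a median of 0.082, and Mdm2, a further p53 target, differed by 0.08. Over all genes, 56.4% were above intact and the median was 0.015.

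Among antioxidant genes Gpx3 was called. Gpx3, the secreted glutathione peroxidase, read 8.35, 8.28, 8.43 and 8.45 in intact and 9.21, 9.16, 9.15 and 8.85 in GPER KO. Animal 451 was the lowest of the GPER KO group and 0.40 above the highest intact animal. The difference was 0.71 ± 0.08 (SE, adjusted p = 0.0082 in limma). Of 24 measured antioxidant genes and NRF2 targets, 20 were above intact, the median was 0.087, and Gpx1 (0.48) and Srxn1 (0.47) did not overlap without being called. Over all genes, 56.4% were above intact and 0.304% were called higher. Tspo, a cholesterol-binding protein of the outer mitochondrial membrane, read 6.13, 6.33, 6.27 and 6.44 in intact and 6.91, 7.04, 6.93 and 6.97 in GPER KO. It was higher by 0.67 ± 0.07 (SE) and was called in all 17 alternative fits.

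The protein disulfide isomerase P4hb was higher by 0.55, the membrane protein Ckap4 of rough endoplasmic reticulum by 0.52 and the cargo export factor Cnih4 by 0.32. P4hb and Cnih4 kept the call in 1 and Ckap4 in 5 of the 8 fits with an array left out, with adjusted p values in limma of up to 0.157, 0.134 and 0.0838. In the fixed list of integrated stress and unfolded protein response genes none of 25 was called, 19 were above intact, and the median was 0.066. The chaperone Hspa5 differed by 0.05. Of 16 heat shock proteins 11 were above intact, with a median of 0.095 and no call.

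Jpt1 (also called Hn1), a small microtubule-linked protein, read 8.10, 8.22, 8.11 and 8.16 in intact and 8.93, 9.14, 8.96 and 9.20 in GPER KO. The intact animals spanned 0.12 and the lowest GPER KO animal was 0.71 above them. The difference of 0.91 ± 0.07 (SE) had an adjusted p of 0.0017 in limma, the second smallest after Ndnf. Dpysl3, which binds actin and microtubules in growing axons, was higher by 0.98 ± 0.11 (SE), with 4.96 to 5.39 in intact and 6.05 to 6.40 in GPER KO. Snap91, a clathrin assembly protein of synapses, was higher by 0.63, and the endocytic protein Ehd4 by 0.54. Jpt1, Dpysl3 and Snap91 were called whichever array was left out, and Ehd4 in 5 of the 8 fits (adjusted p in limma of up to 0.0521). The 7 measured Schwann cell and neuron markers had a median of −0.040 and no call.

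In the list of tubulins and cytoskeleton, 24 of 29 measured genes were above intact and the median was 0.20 (0.26 within the low and 0.079 within the high animal numbers, and 0.087 without 430), but none was called. Over all genes, 56.4% were above intact. Tubb2a, a beta tubulin, read 5.36, 6.37, 5.94 and 6.31 in intact and 6.86, 6.55, 7.41 and 7.24 in GPER KO, without overlap and with an adjusted p of 0.127 in limma. Tuba1b was 0.48 above intact (adjusted p = 0.0570 in limma). Tpm4 and Map4 were 0.39 and 0.27 below. Tubulin genes resemble each other closely, and probe sets may share targets.

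Rpl3, a protein of the large ribosomal subunit, was higher by 0.69 ± 0.10 (SE, adjusted p = 0.0211 in limma), from 8.57, 9.07, 8.84 and 8.89 in intact to 9.60, 9.41, 9.52 and 9.61 in GPER KO. Its muscle form Rpl3l was 0.11 below intact and was not called. Of 33 measured cytosolic ribosomal proteins 32 were above intact, 10 of them with every GPER KO value higher against 4.2% of all genes, and Rpl3l was the exception. The median was 0.13 and Rpl3 the 1 call, which was lost without 431, 432, 452 or 453 (adjusted p in limma of up to 0.0931). Over all genes, 0.304% were called higher and 56.4% were above intact. Polr1e, a subunit of RNA polymerase I that transcribes ribosomal RNA, was higher by 0.49, and kept its call in 3 of the 8 fits with an array left out (adjusted p in limma of up to 0.0891). Uck2, a kinase of the pyrimidine salvage pathway, was higher by 0.75. Many ribosomal protein genes have near-identical copies in the genome, so these values are uncertain as to the copy. Dpyd, the first enzyme of pyrimidine breakdown, was lower, with 4.94, 5.21, 4.74 and 5.14 in intact and 4.38, 4.35, 4.13 and 4.04 in GPER KO (−0.78 ± 0.11 SE), and its call was kept in 3 of the 8 fits (adjusted p in limma of up to 0.0661).

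Mitochondrial and metabolic genes gave few calls. Cox19, a copper chaperone for cytochrome c oxidase, was higher by 0.51, and Timm10, a chaperone of protein import, by 0.38. Nubp1 and Ciao2b, which belong to the machinery that places iron-sulfur clusters on cytosolic and nuclear proteins, were higher by 0.48 and 0.45. With an array left out, the call was kept in 3 of the 8 fits for Cox19, 1 for Timm10, and 2 each for Nubp1 and Ciao2b, with adjusted p values in limma of up to 0.134. None of 33 complex I genes and none of 39 genes of complexes II to V was called. They were below intact in 26 and 31 genes, with medians of −0.037 and −0.030 and no difference larger than 0.17 in size. None of 29 genes of mitochondrial biogenesis, dynamics and import was called, and 19 were below intact.

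Fatty acid oxidation leaned downwards without a call. Of 26 measured genes 24 were below intact, 9 of them without overlap, where 1.97% of all genes had every GPER KO value lower. The median was −0.16. Acot1, a thioesterase that splits long-chain acyl-CoA, read 5.51, 5.01, 5.28 and 5.41 in intact and 4.89, 4.59, 4.52 and 4.35 in GPER KO (−0.72 ± 0.13 SE, adjusted p = 0.0583 in limma). Etfdh, which passes electrons from fatty acid oxidation to ubiquinone, was 0.29 below intact. Cpt1b, the entry enzyme of the muscle pathway, differed by less than 0.005. The mean log2 signal of the list was 9.81 to 9.92 in intact and 9.62 to 9.76 in GPER KO, without overlap.

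In the breakdown of branched-chain amino acids and propionate 1 of 22 measured genes was called, where 0.0819% of all genes were called lower. Bckdhb, the E1 beta subunit of the branched-chain ketoacid dehydrogenase, read 7.97, 7.87, 8.11 and 8.07 in intact and 7.48, 7.55, 7.43 and 7.68 in GPER KO. All GPER KO animals were lower, by 0.47 on the log2 scale (SE 0.08, adjusted p = 0.0369 in limma), and the call was kept in 2 of the 8 fits with an array left out, with an adjusted p in limma of up to 0.134. Dbt, the E2 subunit of the same complex, was 0.55 below intact without overlap and had an adjusted p of 0.10 in limma. Of the 22 genes 19 were below intact, 7 of them with every GPER KO value lower against 1.97% of all genes, and the median was −0.15. Of 28 genes of the citric acid cycle and pyruvate oxidation 25 were below, with a median of −0.087 and no call.

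The list of glucose uptake, glycolysis and glycogen was mixed. Of 26 measured genes, 15 were above intact and the median was 0.028. Over all genes, 56.4% were above intact and 0.304% were called higher. Pfkp, the platelet form of phosphofructokinase, was higher by 0.55 (adjusted p = 0.0439 in limma), with 6.85 to 7.18 in intact and 7.37 to 7.68 in GPER KO. The hexokinase Hk1 (0.46, adjusted p = 0.0570 in limma) and the transporter Slc2a1 (0.32) did not overlap and were not called, while the muscle forms Pfkm and Hk2 and the transporter Slc2a4 were 0.05, 0.08 and 0.12 below intact. Stbd1, which tethers glycogen to membranes, was called higher by 0.85 (3.70 to 4.31 in intact, 4.66 to 5.16 in GPER KO). The calls of Pfkp and Stbd1 were each kept in 2 of the 8 fits with an array left out, with an adjusted p in limma of up to 0.161.

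**Figure D4:**
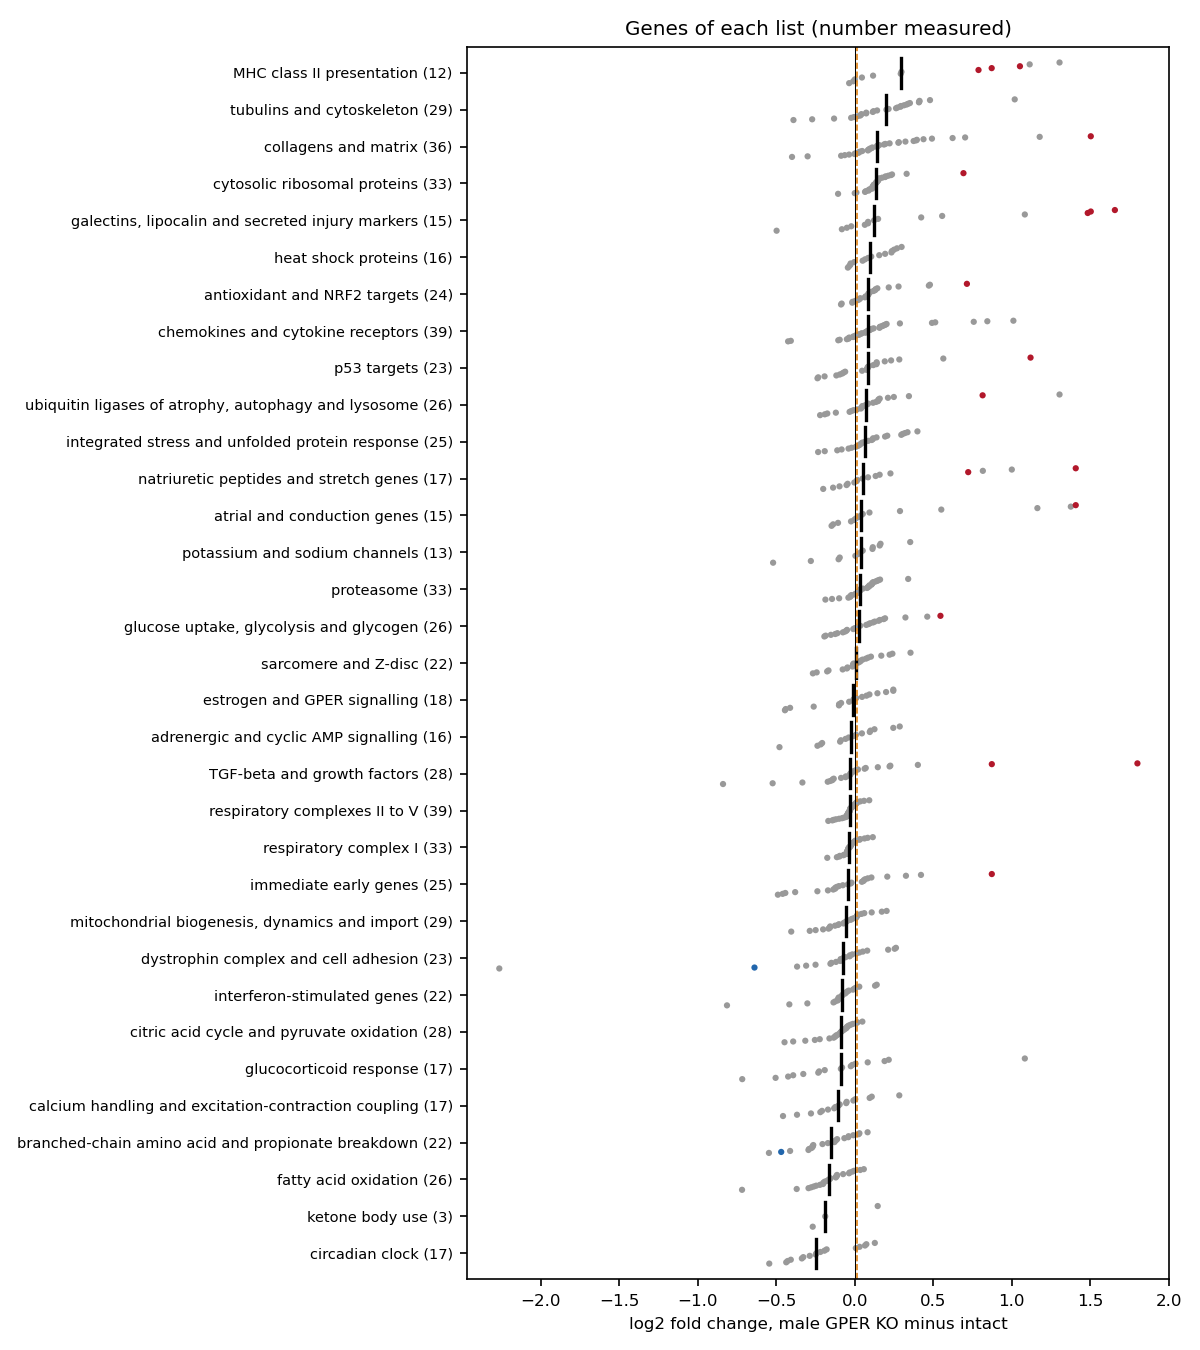
Log2 differences between male GPER KO and intact for the measured genes of each functional list, with the list median as a black bar and the median of all genes as a dashed line. Red and blue points are called genes. Class II presentation has the highest median, 0.30, and the circadian clock the lowest, −0.24.

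The gene with the largest called decrease was Amy1, the salivary and liver form of alpha-amylase. It read 5.76, 4.95, 6.07 and 5.41 in intact and 3.49, 3.75, 3.58 and 3.51 in GPER KO. The lowest intact animal was 1.20 above the highest GPER KO animal. The difference was −1.97 ± 0.20 (SE), or 3.90-fold lower, with an adjusted p of 0.0065 in limma and of at most 0.0294 with any array left out. Amylase genes lie in a family of near-identical copies, so the probe set may not tell Amy1 from its relatives.

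Exoc2, a subunit of the exocyst that tethers secretory vesicles, read 5.77, 5.77, 5.78 and 5.65 in intact and 4.83, 4.85, 4.85 and 5.11 in GPER KO. Within each group 3 animals lay within 0.03 of each other. The difference was −0.83 ± 0.07 (SE, adjusted p = 0.0029 in limma). Ttll1, a tubulin polyglutamylase, was lower in all GPER KO animals, from 9.32 to 9.49 in intact to 8.52 to 8.85, a difference of −0.71 ± 0.08 (SE). Amy1, Exoc2 and Ttll1 were the genes among the 14 that stayed called whichever array was left out.

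Ano10, a membrane protein of the anoctamin family, was lower with a difference of −0.79, and Dcakd, a protein with a dephospho-CoA kinase domain, with −0.70. Their calls were kept in 4 and 7 of the 8 fits with an array left out (adjusted p in limma of up to 0.088 and 0.0538). Gpcpd1, an enzyme that splits glycerophosphocholine, read 9.09, 9.35, 9.30 and 9.36 in intact and 8.57, 8.89, 8.46 and 8.29 in GPER KO, and kept its call in 2 fits (adjusted p in limma of up to 0.134). Tfdp2, a partner of E2F transcription factors, had a difference of −0.56 and lost its call in each of the 8 fits with an array left out (adjusted p in limma of 0.0503 to 0.134). The other calls were the Ral GTPase regulator Ralgapa2 (−0.45), the autophagy enzyme Atg10 (−0.42), the kinesin adaptor Kifap3 (−0.41) and the RNA-binding protein Hdlbp (−0.39). Kifap3 kept its call in 5 of the 8 fits and the others in 1 each, with adjusted p values in limma of up to 0.133.

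Ctnna3, alpha-T-catenin of the intercalated disc, was the 1 called of 23 measured genes in the list of the dystrophin complex and cell adhesion. Over all genes, 0.0819% were called lower. Ctnna3 read 4.71, 4.50, 4.39 and 4.69 in intact and 3.89, 3.84, 3.89 and 4.11 in GPER KO (−0.64 ± 0.09 SE, adjusted p = 0.0184 in limma), and its call was lost without 431, 432 or 453 (adjusted p in limma of up to 0.0829). Dmd, dystrophin, had the largest difference of any gene and was not called. It read 7.38, 7.18, 5.80 and 5.88 in intact and 4.05, 4.92, 4.79 and 3.43 in GPER KO. The groups did not overlap, but the intact animals fell in a higher pair, 430 and 433, and a lower pair, 452 and 453. The difference was −2.26 ± 0.43 (SE, adjusted p = 0.0665 in limma). A second Dmd probe set gave −1.46 and another, at a mean of 2.43, gave 0.02. The partners Sgca, Sgcb, Dag1 and Utrn were 0.15, 0.25, 0.07 and 0.06 below intact, and none was called.

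Calcium handling, channel and sarcomere genes gave no call. Of 17 calcium handling genes 13 were below intact, with a median of −0.10. The ryanodine receptor Ryr2 and its partner triadin (Trdn) were 0.28 and 0.37 below intact without overlap, at adjusted p values in limma of 0.306 and 0.261. Of 13 potassium and sodium channel genes 9 were above intact, and Kcnv2, a silent potassium channel subunit, was 0.52 below without overlap. The 22 sarcomere and Z-disc genes were split 11 to 11, with a median of 0.0078. Klhl40, a protein that steadies thin filaments in skeletal muscle, was called higher by 0.58, and Grk5, a kinase that switches off activated G protein-coupled receptors, by 0.76 (5.78 to 6.12 in intact, 6.49 to 6.97 in GPER KO). Their calls were kept in 1 and 3 of the 8 fits with an array left out (adjusted p in limma of up to 0.119 and 0.0933). Of 18 genes of estrogen and GPER signalling and 16 of adrenergic signalling none was called, with medians of −0.0086 and −0.024. Maob, which oxidises monoamines, was 0.48 below intact without overlap.

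The circadian clock had the lowest median of the functional lists. Of 17 measured clock genes 12 were below intact, the median was −0.24 (−0.076 within the low and −0.33 within the high animal numbers), and none was called. Nr1d2, a REV-ERB repressor, was 0.54 below and Arntl 0.13 above. The mean of the list was 5.58 to 5.76 in intact and 5.50 to 5.54 in GPER KO animals other than 444, which stood at 5.18. Without 444 the list median was −0.082. The time of day of collection is not given in the sources used here. Glucocorticoid response genes were below intact in 12 of 17, with Sgk1 0.72 below and Lcn2 1.08 above, and none was called. Their median was −0.088, with 0.059 within the low and −0.24 within the high animal numbers. Immediate early genes were below intact in 15 of 25, with Ccn2 the 1 call, where 0.304% of all genes were called higher.

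Lysosomal and proteasome genes were mostly above intact. Of 26 genes of atrophy ligases, autophagy and lysosome 19 were above, with a median of 0.073 and Ctsz the call, and the atrophy ligases Trim63 and Fbxo32 were 0.19 and 0.12 below. Of 33 proteasome genes 25 were above, with a median of 0.035 and no call. That median was 0.10 within the low and −0.0074 within the high animal numbers. The mean log2 signal of the proteasome list overlapped, at 8.32 to 8.42 in intact and 8.32 to 8.45 in GPER KO. Over all genes, 56.4% were above intact and the median was 0.015.

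The remaining genes called higher were 1700120C14Rik by 0.80, Mal, a membrane protein of myelin and lymphocytes, by 0.55, the calcium-binding protein S100a13 by 0.54 and the annexin Anxa7 by 0.41. Smaller differences were called for Vwa5a (0.40), Pnkd (0.39), Mtus2 (0.39), Gm30873 (0.36) and the nuclear pore protein Nup43 (0.34). Of these, 1700120C14Rik was called whichever array was left out, with 6.74, 6.91, 6.83 and 7.18 in intact and 7.84, 7.62, 7.75 and 7.65 in GPER KO. Mal kept its call in 7, S100a13 in 6, Pnkd in 3, Gm30873 in 2 and the other 4 in 1 of the 8 fits, with adjusted p values in limma of up to 0.161. Beyond the called genes, 12 differed by 2-fold or more without a call: Dmd below intact, and Nppb, Ccl6, Tubb2a, Slc38a4, Lyz2, Lcn2, H2-Eb1, Myl4, Col3a1, Ctss and Myl7 above it. The groups overlapped in 6 of them.

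The called genes can also be described by measures that the test did not use. Of the 66, 30 have further probe sets, and 45 of the 49 further probe sets moved in the called direction. Of the 18 of these with a mean log2 signal of at least 5, 17 did, and the exception is a probe set of Pnkd. All were read on the same arrays, and their sizes varied. At that level, further probe sets of Il13ra1 gave 0.41 to 0.43 beside 0.41. Those of Uck2 gave 0.14 and 0.45 beside 0.75, and those of Tfdp2 gave −0.13 and −0.15 beside −0.56. By RefSeq gene length the genes called lower were long, with a median of 141 kb over all 14, against 12.4 kb for 50 of the 52 called higher and 21.6 kb for 15542 genes not called. Ctnna3 is the longest of those called lower, at 1574 kb. No test was made of this difference.

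Some called genes lie beside each other on the chromosome. H2-Ab1 and H2-Aa, and Tmem176b and Tmem176a, are direct neighbours, Phlda3 and Lad1 lie 2 places apart and both were higher, and Ttll1 and Tspo lie 3 places apart and moved in opposite directions. Around Gper1 itself, 10 of the 12 nearest genes (6 on each side) were measured and 1 was called. That gene is Cox19, 5 places before Gper1, at 7.72, 7.89, 7.72 and 7.76 in intact and 8.32, 8.30, 8.10 and 8.43 in GPER KO (adjusted p = 0.0252 in limma), a call that was lost without 430, 431, 432, 452 or 453 (adjusted p in limma of up to 0.105). The direct neighbours C130050O18Rik and Zfand2a differed by −0.016 and 0.15.

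Whether the male differences were particular to males was asked with the 8 female arrays, in a fit of all 16 arrays with the sex difference of the knockout effect as a contrast. No gene (0.0%) passed an adjusted p of 0.05 in limma in that contrast, the smallest being 0.323, and 1876 genes had an unadjusted p under 0.05. For 63 of the 66 genes called in males, the female difference ran the same way. The exceptions were Gpcpd1, at −0.72 in males and 0.27 in females, Tfdp2, at −0.56 and 0.14, and Lad1, an anchoring filament protein, at 0.71 and −0.018. The difference was larger in males for 58 of the 66, with a median size of 0.64 in males and 0.34 in females. The genes were chosen by their male call, so larger male values follow in part from the choice and no test was made on these counts.

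Among the called genes the smallest unadjusted p values of the sex contrast were those of Lad1, Prmt2, Sulf2, Rpl3 and Gpcpd1, and none of them passed the adjustment (0.427 or above in limma). Prmt2, an arginine methyltransferase, was higher by 0.51 in males and 0.18 in females, and Sulf2, an extracellular sulfatase that edits heparan sulfate, by 0.53 and 0.11. The male call of Prmt2 was kept in all 8 fits with a male array left out, that of Sulf2 in 6 and that of Lad1 in 5, with adjusted p values in limma of up to 0.0582. Ndnf was higher by 1.44 in females and 1.80 in males, Fgl2 by 1.34 and 1.48, and Amy1 lower with differences of −1.45 and −1.97. Ankrd1 was among the few genes with a larger female value, 1.15 against 0.72. When females were fitted alone, 13 genes were called, 9 of them among the 66.

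**Figure D5:**
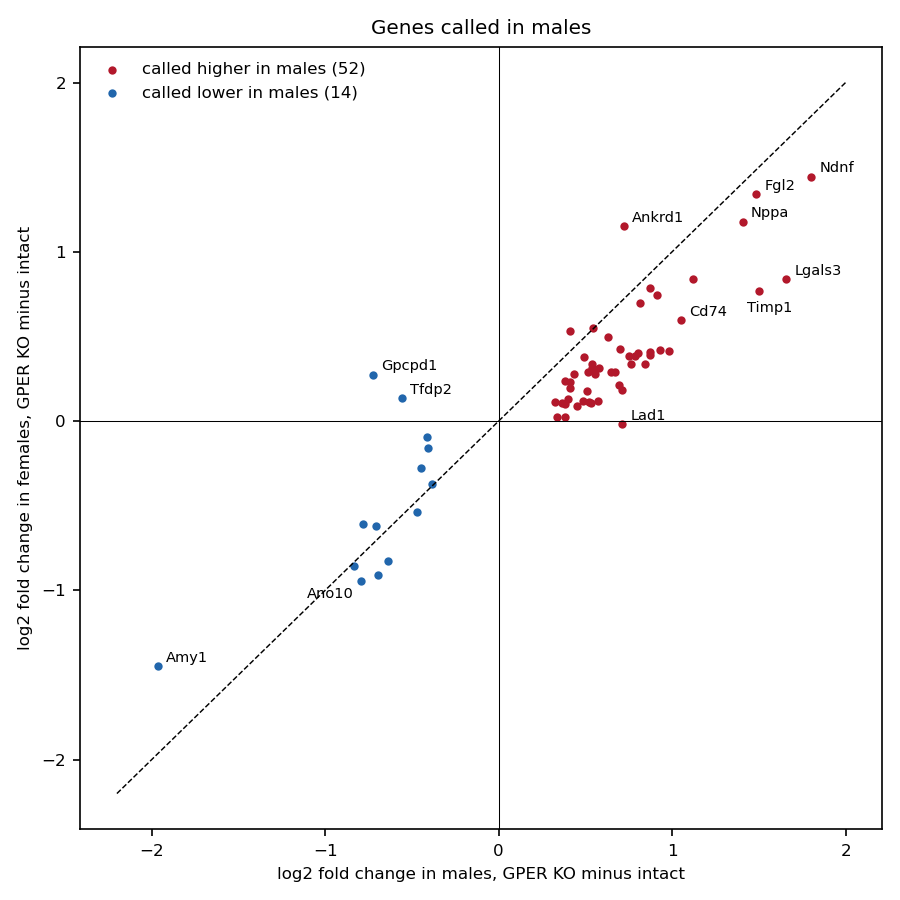
Log2 differences between GPER KO and intact in males (horizontal) and in females (vertical) for the 66 genes called in males, with equal values on the dashed line. Most points lie between the horizontal axis and the line, 63 share the sign of the male value, and Gpcpd1, Tfdp2 and Lad1 do not.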

How the data were processed

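Cardiomyocyte RNA of 8 male mice was measured on Affymetrix GeneAtlas MG-430 PM arrays, 1 array per mouse. The deposited values are log2 signals per probe set, made by the authors with RMA and Partek per the labels, which give no versions. RMA as usually run corrects background, quantile-normalizes and summarizes probes, and these steps were not repeated. Of 45141 probe sets, 28898 had 1 symbol in the platform annotation, 551 several and 15692 none. Symbols were updated through Entrez identifiers to the RefSeq table of GRCm38.p6 for 28689 of them, and each of 17097 genes was read from its brightest probe set by the mean of the 8 arrays. The GRCm38.p6 build was used for names, neighbours, gene lengths and promoter sequences only.

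Group means were compared in R 4.3.3 with limma 3.58.1 (lmFit and eBayes, two-sided, 4 against 4 arrays, no filter), with Benjamini-Hochberg adjustment over all genes and a threshold of 0.05. The p-values weigh the difference of the group means against the spread between mice within groups, pooled over both and moderated across all genes. In simulated data for 17097 genes on 8 arrays, 74% of log2 changes of 0.5 and 97% of changes of 1 were recovered, with 8 false calls. Values were drawn independently from normal distributions with each gene's observed SD, and 100 genes per size were changed. The simulation held no variation shared between genes of an animal, so recovery on the real arrays may be lower. The number of arrays limits the precision. Strip and scan batches are not given in the sources used here.

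The comparison, the 33 functional and 13 marker lists and the tests were chosen with earlier results of these data known. The named genes are Gper1 and its neighbours, up to 20 called genes per direction by size, up to 4 called or 2 uncalled members per list by p, the defining markers, and the 5 called genes with the smallest p for a sex difference. The remaining called genes and other uncalled list members, such as Dmd, Nppb, Lyz2, Ctss, Col3a1 and Tubb2a, were named after their values were seen. Alternatives were the fit of all 16 arrays, other probe set rules, a filter at the 40th percentile on at least 4 arrays, repeated quantile normalization, median centring, array weights, trend with robust moderation, animal number as a block, and leaving out each array.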

Additional observations from a re-analysis of the deposited data

Results flagged for a closer look

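In 224 groups of 4 animals looked at (the called genes and the list means, in each genotype), 12 had 1 animal far from the other 3 relative to the range of the group, and chance gives about 1 in 20. GPER KO 451 was that animal for Cd74 (6.10, others 6.68 to 6.74), Gpx3 (8.85, others 9.15 to 9.21), Exoc2 (5.11, others 4.83 to 4.85), the mean of the MHC class II list (4.51, others 4.89 to 4.96) and the mean of the mitochondrial biogenesis, dynamics and import list (7.72, others 7.66 to 7.67). GPER KO 444 was that animal for Polr1e (5.60, others 5.82 to 5.85) and for the mean of the circadian clock list (5.18, others 5.50 to 5.54).

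Among intact animals, 453 stood apart for Exoc2 (5.65, others 5.77 to 5.78), 452 for Kifap3 (6.24, others 6.14 to 6.15) and for Ckap4 (5.95, others 6.19 to 6.23), 433 for the mean of the natriuretic peptide and stretch list (8.63, others 8.74 to 8.76) and 430 for the mean of the integrated stress and unfolded protein response list (6.55, others 6.60 to 6.61).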

How the results depend on the processing

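The number of called genes was 66. It was 105 with all 16 arrays in the fit (52 of the 66 shared) and 103 with array weights. Genes called higher, 52, were 87 and 80 in these fits, and genes called lower, 14, were 23 with array weights. With 1 array left out, called genes numbered 23 to 85, higher genes 17 to 66 and lower genes 4 to 19. Other settings stayed within 1.5 times the count: 54 with the mean of probe sets, 66 with the probe set chosen over 16 arrays, 81 with the filter, 71 after quantile normalization, 62 after median centring, 82 with trend and robust moderation, 73 with animal number as a block and 69 when every probe set was tested. No called gene changed sign under any of these, and 812 of 1122 values of called genes kept the call. With an array left out, the non-overlapping groups fix the sign in advance. Of the 66 genes, 13 were called in all 17 alternatives. Of 874 list medians, 32 changed sign, and those with a median of at least 0.1 in size were fibroblast and smooth muscle and pericyte markers, within animal numbers only. The sex contrast called 0 genes in each alternative run. No paired analysis was possible because each animal has its own number and the groups share none. The cause of the changes in count was not tested. The 4 arrays per group and the unsorted cells limit every result.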
